A study of Mus musculus with 2 samples.

Results

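MHC class II high C1q macrophages are tumor macrophages that carry C1q transcripts together with a large share of MHC class II transcripts. Here they were chosen by measured transcript levels, among CD45+ cells of subcutaneous B16-F10 melanoma whose mitochondrial transcripts made up under 10% of the unique molecular identifiers (UMIs, each counted as 1 captured mRNA molecule). A cell was selected when it held at least 10 UMIs of C1qa, C1qb and C1qc together, at least 1.5% of its UMIs in H2-Aa, H2-Ab1 and H2-Eb1, and under 0.15% in the hypoxia genes Vegfa, Hilpda, Ero1l, Egln3 and Bnip3. It also held at most 3 UMIs of Mrc1, at most 2 of Lyve1, Cbr2 and Cd163 together, at most 2 of the proliferation genes Mki67 and Top2a together, and at most 9 of Retnla. These gates kept 424 of 12078 cells, 202 in the library labelled Irg1+/+ and 222 in the library labelled Irg1-/-. They are called members below.

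Melanoma cells of the B16-F10 mouse line (200000 per mouse) were injected under the skin of C57BL/6 mice that were either Irg1+/+ or Irg1-/-, a whole-body deletion of Irg1, the gene now named Acod1. The Irg1-/- line had been backcrossed onto C57BL/6J, and the mice were females of 8 to 10 weeks. Tumors were taken at day 10, pieces of 100 mm3 from 3 mice of a genotype were pooled, and 6000 CD45+ cells per pool were sorted for single-cell RNA sequencing on the BD Rhapsody microwell system. Each genotype was therefore 1 library of pooled mice, the genotypes cannot be told apart from the 2 pools, and no test between them was possible. Intervals given below are 95% intervals for counting error only, and are exact except for differences between shares.

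The files held 6408 and 5896 cell barcodes in the libraries labelled Irg1+/+ and Irg1-/-, of which 6284 and 5794 were kept. The cell number listed for each genotype in the study's sequencing summary equals the barcode number of the library with that label. Total UMIs were 43617546 and 36432067. The libraries shared 36 barcodes, none of them in a member. Members had a median depth of 7541 UMIs (range 550 to 24502) and 9048 UMIs (range 670 to 22030), and summed to 1706713 and 2095059 UMIs, in the same order of libraries. Levels below are CPM: UMIs of a gene summed over a group of cells, per 1000000 UMIs of all genes except the mitochondrial ones.

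C1q is the recognition protein of the classical complement pathway and in tumors is made mainly by macrophages. MHC class II molecules present peptides to CD4+ T cells, and their genes are switched on together by the coactivator Ciita, which interferon gamma induces in macrophages. Cd74 (the invariant chain), H2-DM and H2-O steer peptide loading. Acod1 encodes the mitochondrial enzyme that makes itaconate in activated macrophages.

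Over all members, the targeted gene was not lower in the library labelled Irg1-/-. Among members, Acod1 (chr14:103046977-103056573, GRCm38) had 128 UMIs in 57 of 202 cells in the library labelled Irg1+/+ and 354 UMIs in 101 of 222 cells in the library labelled Irg1-/-, or 75.0 and 169 CPM. The log2 ratio was 1.17 (0.88 to 1.47), higher in the library labelled Irg1-/-. It turned to -1.49, from 30 and 9 UMIs, in the 31 and 27 members that held under 2 UMIs of T cell, NK cell, B cell, neutrophil and melanoma markers each. Levels elsewhere were 136 and 138 CPM in monocytes, 84.6 and 122 CPM in Mrc1 high C1q cells, and 35.0 and 24.1 CPM in T cells. A count per gene does not place its UMIs along the transcript, so Acod1 was no check of the genotype labels here, and each direction between libraries below rests on those labels. After thinning each cell to 3000 UMIs, Acod1 was seen in 16.8% (11.7 to 23.1) and 25.6% (19.8 to 32.0) of members. In T cells it was seen in 6.57% and 9.17%, in the same order of libraries.

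The MHC class II genes of the rule lie side by side on chromosome 17 (GRCm38): H2-Aa at chr17:34282744-34287823 on the minus strand, H2-Ab1 at chr17:34257689-34269419 and H2-Eb1 at chr17:34305867-34316674, both on the plus strand. The 150 bases before the RefSeq start of H2-Aa (chr17:34287824-34287973, minus strand) and H2-Eb1 (chr17:34305717-34305866, plus strand) are shown 5′ to 3′ because both genes choose the members, and the 150 bases before Isg15 (chr4:156200819-156200968, minus strand), an antiviral ubiquitin-like protein, because it is among the interferon genes that differed between the libraries. All are from RefSeq, assembly GRCm38.p6. In H2-Aa and H2-Eb1 the capitals mark CCAAT or its complement, the letters at the core of the Y box of class II promoters, and in Isg15 they mark 3 overlapping matches to the core of the interferon-stimulated response element, GAAA and again GAAA with 2 bases of any kind between them.
H2-Aa: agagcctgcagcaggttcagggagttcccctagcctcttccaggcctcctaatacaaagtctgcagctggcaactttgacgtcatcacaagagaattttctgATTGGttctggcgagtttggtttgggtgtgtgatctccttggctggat
H2-Eb1: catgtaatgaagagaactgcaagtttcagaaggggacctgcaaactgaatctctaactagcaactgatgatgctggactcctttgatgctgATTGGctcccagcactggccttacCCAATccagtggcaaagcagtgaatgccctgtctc
Isg15: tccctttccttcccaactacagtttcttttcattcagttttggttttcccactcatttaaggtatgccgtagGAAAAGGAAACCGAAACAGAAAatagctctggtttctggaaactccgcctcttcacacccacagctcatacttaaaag
The shares that follow were counted over whole promoter windows, which are longer than the 150 bases shown. On either strand, CCAAT was found in 11 of 15 promoters (73.3%) of the MHC class II list, for which 13 of 17 genes matched the table, and in 37.4% of all 32851 promoters. The core of the response element was found in 16 of 29 promoters (55.2%) of the type I interferon response list, with 24 of 32 genes matched, and in 10 of 20 (50%) of the interferon gamma list, with 17 of 25 matched, against 3.44% of all promoters. TTCNNNGAA, the letters of the gamma-activated site, was in 40% of promoters of the interferon gamma list and 8.3% of all. The 150 bases before Ifi44 and Ddx58, a shorter stretch than the windows of these shares, held 0 matches to the core of the response element. They are not shown. A match describes the letters in the window and is not evidence of binding.

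Most members carried macrophage transcripts, but 23 in each library, 11.4% (7.36 to 16.6) and 10.4% (6.68 to 15.1), stood apart by dendritic cell genes. These held 5 or more UMIs of the dendritic cell genes Flt3, Zbtb46, Xcr1, Clec9a and Cd209a, a limit set after the values were seen, so the levels of these 5 genes in them are a description. Xcr1, the chemokine receptor of type 1 dendritic cells, stood at 825 and 482 CPM in them and at 20.5 and 14.3 CPM in the other members, in the libraries labelled Irg1+/+ and Irg1-/-. Clec9a, their dead cell receptor, stood at 401 and 339 CPM against 26.3 and 20.6 CPM. Macrophage genes were low in the same cells: Csf1r, the receptor that macrophages need to survive, was at 177 and 238 CPM against 794 and 775 CPM. Ms4a7, a membrane gene of tissue macrophages, was at 56.0 and 51.7 CPM against 520 and 488 CPM.

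The dendritic gene bearing members sat mostly near the C1q threshold and were deep. Their median was 12 C1q UMIs in each library, against 29 and 32 in the other members, and 19 of 23 in each library lay between 10 and 19 C1q UMIs. Median depth was 15038 and 15587 UMIs, against 7147 and 8120. T cells, which do not make C1q, carried 545 and 532 CPM of C1q in these libraries, so a gate in raw UMIs admits deep cells more readily. Whether these cells are dendritic cells with free C1q RNA, or 2 cells in 1 well, was not tested, and the counts below and the named calls that changed are given with and without them.

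**Figure D1:**
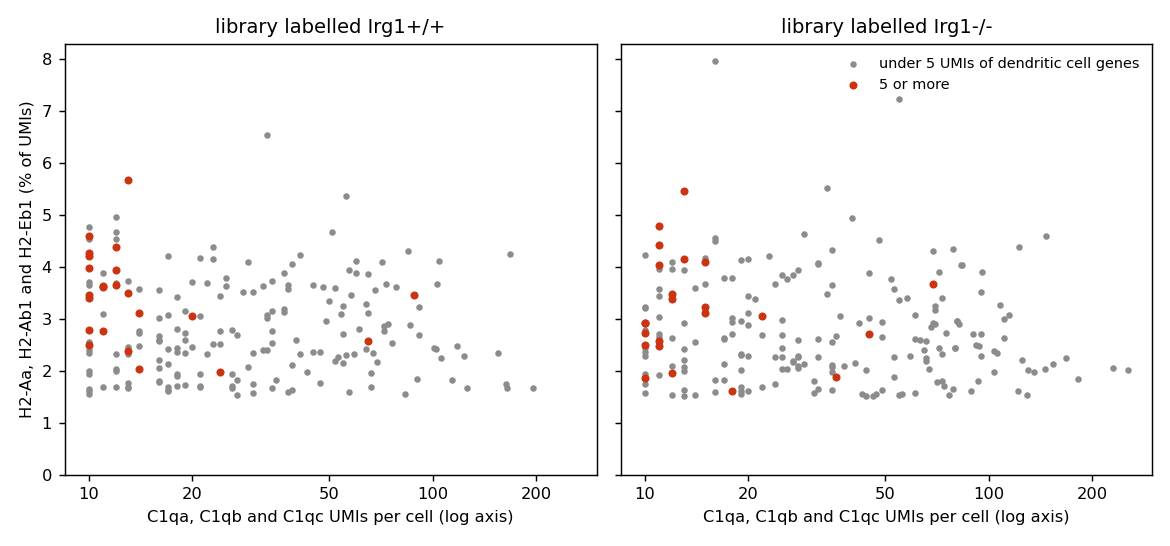
Each point is 1 member, with its C1qa, C1qb and C1qc UMIs on a log axis and the percent of its UMIs in H2-Aa, H2-Ab1 and H2-Eb1, in the library labelled Irg1+/+ (left, 202 cells) and the library labelled Irg1-/- (right, 222 cells). Red points, 23 in each library, hold 5 or more UMIs of dendritic cell genes and lie mostly at 10 to 19 C1q UMIs.

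The values that chose the members are a description. C1q UMIs per cell ranged from 10 to 196 with a median of 25.5 in the library labelled Irg1+/+, and from 10 to 255 with a median of 28 in the other. The share of MHC class II UMIs had a median of 2.68% (1.53 to 6.54) and 2.59% (1.51 to 7.96). Just inside the limit, at 1.5 to 1.75%, lay 29 and 31 cells, and just outside it, at 1.25 to 1.5%, lay 16 and 32. Ciita stood at 88.0 and 144 CPM just inside and at 20.6 and 109 CPM just outside, while Ms4a7 stood at 469 and 393 CPM inside and 461 and 646 CPM outside. Fcgr4 stood at 407 and 540 CPM inside and 874 and 713 CPM outside. No interval was computed for these levels, and the 20.6 CPM of Ciita rests on few UMIs in 16 cells.

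Of all kept cells, members were 3.21% (2.79 to 3.68) and 3.83% (3.35 to 4.36) in the libraries labelled Irg1+/+ and Irg1-/-. The 2 shares differed by 0.617 points (-0.041 to 1.28), which was within counting error. Of the C1q cells alone, those with at least 10 C1q UMIs, they were 15.9% (14.0 to 18.1) of 1268 and 20.6% (18.2 to 23.1) of 1079, with 4.64 points (1.51 to 7.80) between them. This excess over counting error is between 2 pools, with no replicate check. The cycling gate took 28.5% and 20.6% of C1q cells, the Mrc1 high gate 24.6% and 24.9%, and the MHC class II low gate 9.15% and 13.5%. Members left after dropping every cell with 2 or more UMIs of T cell, NK cell, B cell, neutrophil or melanoma markers were 31 and 27, and the difference among C1q cells was then 0.228 points.

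**Figure D2:**
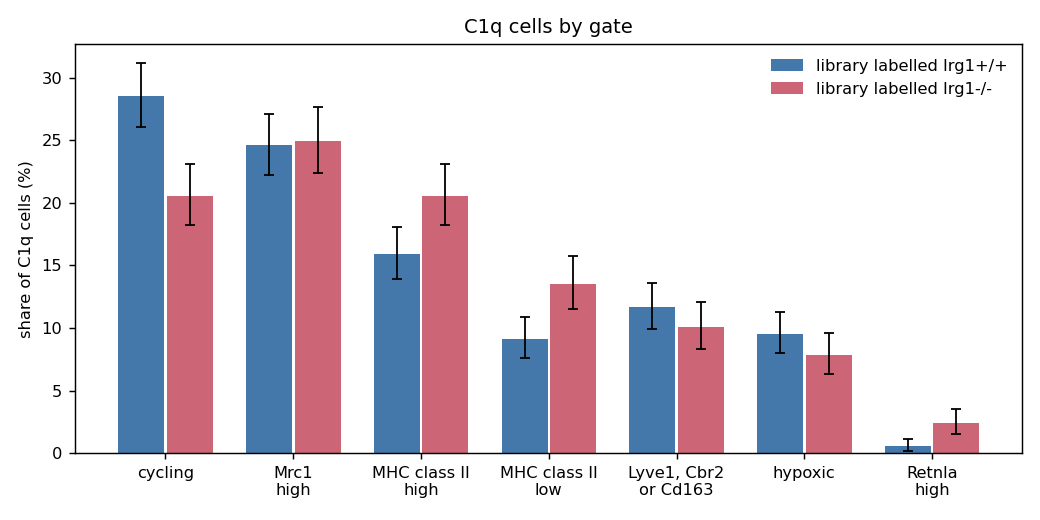
Bars give the share of C1q cells (percent) that each gate took, each cell being put into 1 gate only, for the libraries labelled Irg1+/+ (1268 C1q cells, blue) and Irg1-/- (1079, red), with exact 95% binomial intervals for counting error. The MHC class II high bars are the members, at 15.9% and 20.6%.

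The markers Fcgr4, Ms4a7 and Cd72 were detected above the T cell background but differed by under 2-fold in level from MHC class II low C1q cells. Fcgr4, a receptor for immunoglobulin G, had a UMI in 81.7% and 88.7% of members in the libraries labelled Irg1+/+ and Irg1-/-, against 17.8% and 22.5% of T cells at median depths of 3458 and 2764 UMIs. At 3000 UMIs per cell these shares were 63.6% and 70.1% against 15.8% and 18.3%. Ms4a7 was seen in 55.0% and 61.3% of members and in 12.9% and 12.5% of T cells, or in 35.9% and 43.1% against 9.85% and 13.3% after thinning. Cd72, a lectin known from B cells and macrophages, was seen in 20.3% and 18.9% against 2.99% and 2.21%, or in 9.24% and 9.0% against 1.79% and 1.67% after thinning. Relative to MHC class II low C1q cells, which pass the same gates but hold under 1.5% of MHC class II UMIs, the log2 ratio in the 2 libraries was 0.27 and 0.17 for Fcgr4, -0.10 and -0.39 for Ms4a7 and -0.01 and -0.32 for Cd72. None of the 3 reached the 2-fold limit used below. At 3000 UMIs per cell Ms4a7 was seen in 49.8% and 53.4% of Mrc1 high C1q cells. Fcgr4 was seen in 57.9% and 65.7% of them and Cd72 in 6.02% and 6.34%. In MHC class II low C1q cells Cd72 was seen in 10.4% and 3.03%. H2-Aa and H2-Ab1, which the rule used, had a UMI in every member, but at 3000 UMIs per cell H2-Aa was also seen in 98.2% and 99.2% of T cells, so its detection does not separate them.

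Macrophage identity genes were carried by members and by other C1q cells. Csf1r stood at 671 and 685 CPM in members, 471 and 639 CPM in MHC class II low cells and 638 and 709 CPM in Mrc1 high cells. Adgre1, which encodes F4/80, stood at 260 and 316 CPM in members, 320 and 362 CPM in MHC class II low cells and 331 and 421 CPM in Mrc1 high cells, and had no UMI in the T cells, whose gate asks for that. Of the 9 measured members of the macrophage identity list, 0 differed by 2-fold in both libraries from either neighbour, where 0.498% of all genes were higher and 0.41% lower against MHC class II low cells and 0.438% and 0.838% against Mrc1 high cells. The list medians of the log2 ratio were 0.13 and -0.14 against MHC class II low cells, and -0.35 and -0.33 against Mrc1 high cells. All genes had medians of 0.01 and -0.01 against Mrc1 high cells. Without the dendritic gene bearing members the list medians were 0.33 and 0.04, and -0.07 and -0.19, in the same order. Ly6c2 and Ccr2, which mark blood monocytes that enter tissue, stood at 849 and 1810 CPM and at 1034 and 1300 CPM in members. These were below the monocytes' 2693 and 3724 CPM and 1502 and 1592 CPM. The monocyte gate asks for Ly6c2 and Lyz2 UMIs and few C1q UMIs, so the gap in Ly6c2 is set by the gate. After thinning, Ly6c2 was seen in 69.0% and 89.1% of members and in 63.0% and 88.3% of T cells. Its detection therefore does not separate members from T cells. Ccr2 was seen in 83.7% and 89.6% of members and in 54.9% and 49.2% of T cells.

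**Figure D3:**
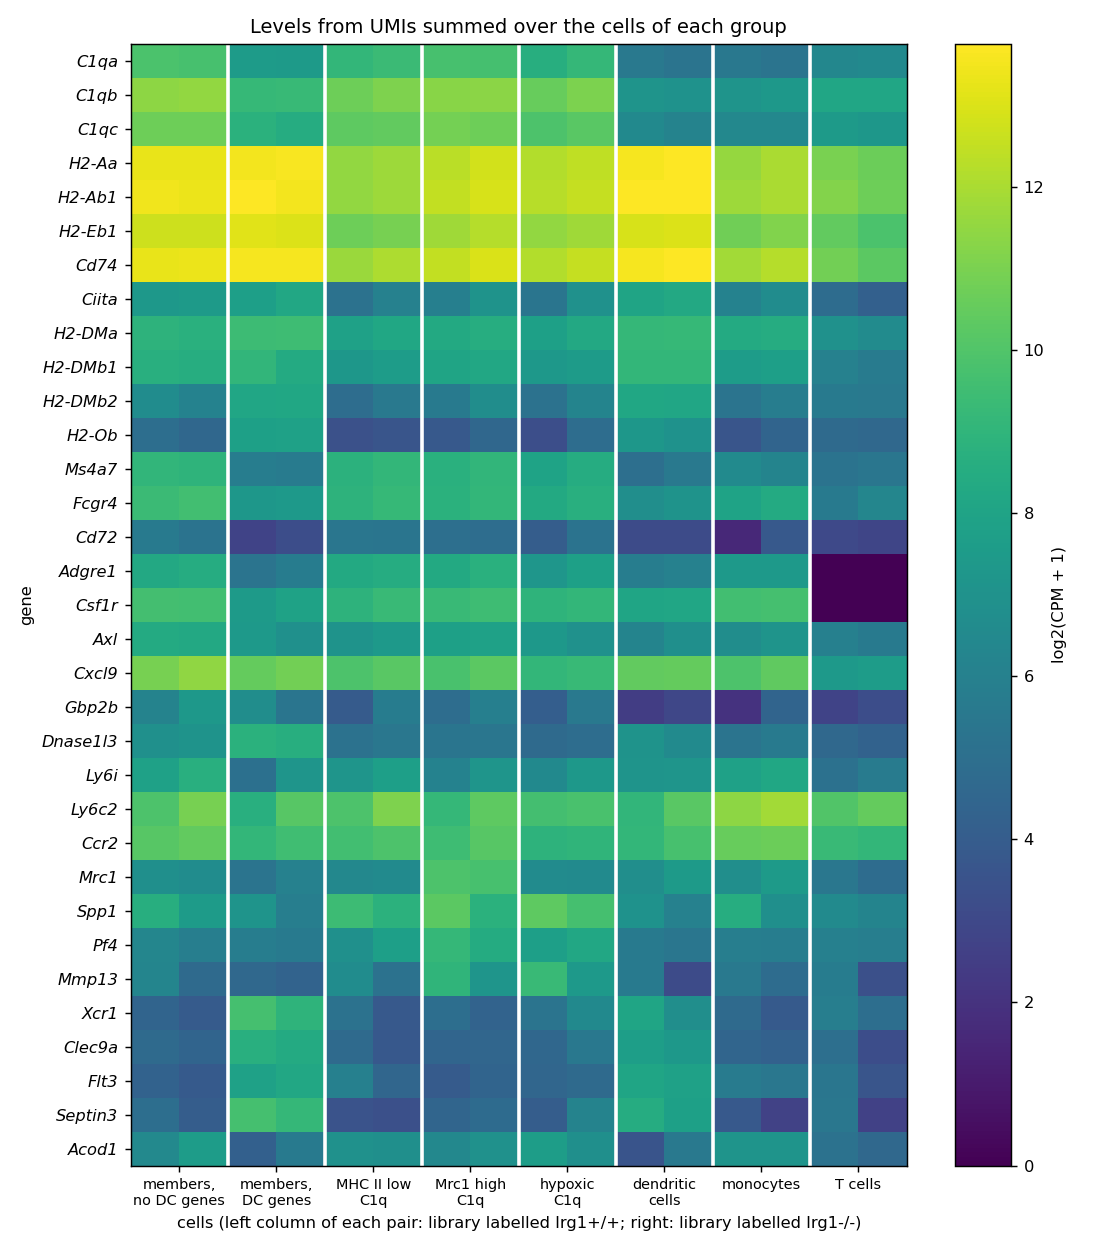
Colour gives log2(CPM + 1) of each gene (vertical axis) in UMIs summed over the cells of 8 groups (horizontal axis), members being split by whether they hold 5 or more UMIs of dendritic cell (DC) genes, with the library labelled Irg1+/+ on the left of each pair. Members without DC genes share high H2-Aa, H2-Ab1, H2-Eb1 and Cd74 with dendritic cells and high C1qa, Csf1r and Ms4a7 with the other C1q cells, and T cells lack Adgre1 and Csf1r because their gate asks for it.

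Beyond the genes of the rule, other MHC class II genes were among those higher in members than in MHC class II low C1q cells. Among 6827 genes with at least 100 UMIs, 34 (0.498%) were at least 2-fold higher in members in both libraries and 28 (0.41%) at least 2-fold lower. Without the members that carried dendritic cell genes the numbers were 15 of 6493 (0.231%) and 46 (0.708%). Over all members, a C1q minimum of 5 UMIs gave 71 and 143, and C1q of at least 0.2% of UMIs gave 11 and 12. Because the gate sets MHC class II transcripts and these genes are regulated with them, their levels are a description and no support for the gate. Of 9 measured MHC class II genes outside the rule, 4 were higher, with list medians of 1.47 and 0.98 on the log2 scale against -0.07 and -0.04 over all genes. Ciita stood at 169 and 202 CPM in members and 35.4 and 63.8 CPM in MHC class II low cells, log2 ratios of 2.24 and 1.65. Cd74 stood at 10413 and 10779 CPM against 3246 and 4193 CPM, log2 ratios of 1.68 and 1.36. H2-DMb1 gave 1.47 and 0.98 and H2-DMb2 gave 2.21 and 1.16, but their near-identical sequences can share reads. H2-Ob, known from B cells and dendritic cells, gave 2.79 and 2.32, and 1.59 and 1.04 without the dendritic gene bearing members.

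The 10 genes highest in members over MHC class II low cells by the smaller of the 2 log2 ratios were Septin3, Plet1, Itgae, Xcr1, H2-Ob, Timd4, Gpr141b, Dnase1l3, Clec9a and Mgl2. Septin3 (4.11 and 3.49) and Itgae (2.91 and 2.98) gave 1.5 and 0.73, and -0.30 and 0.76, without the dendritic gene bearing members. Xcr1 (2.33 and 2.76) and Clec9a (1.94 and 2.51) gave -0.79 and 0.09, and 0.02 and 0.69, a fall built in because those members were chosen by these genes. Plet1 went from 3.26 and 3.72 to 0.95 and 2.14, and Gpr141b from 2.42 and 2.10 to -1.06 and -1.36. Dnase1l3, Timd4 and Mgl2 had log2 ratios above 1 in both libraries with or without those members. Dnase1l3, a secreted nuclease that digests DNA of dead cells, was at 183 and 173 CPM against 35.4 and 42.8 CPM, with log2 ratios of 2.35 and 2.01, and 1.72 and 1.60 without them. Timd4, a receptor for phosphatidylserine on dying cells, gave 2.35 and 2.26, and Mgl2, a galactose lectin, 2.81 and 1.73. Timd4 rested on 7 cells in the library labelled Irg1+/+ and 41 in the library labelled Irg1-/-, or 3.47% and 18.5% of members. It was seen in 3.45% and 9.59% of MHC class II low cells and in 8.55% and 28.4% of dendritic cells, defined below. Gbp2b, an interferon-induced GTPase, gave 2.36 and 1.36. Cxcl9, which draws CXCR3+ T cells, was at 1873 and 2625 CPM against 970 and 1189 CPM, with log2 ratios of 0.95 and 1.14.

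Genes lower in members than in MHC class II low cells included genes of plasma cells and melanocytes, with larger ratios than any gene higher in members for Jchain and Igkc. The 10 lowest were the immunoglobulin genes Jchain (log2 ratios of -4.83 and -6.76) and Igkc (-4.13 and -4.83), then Ptgds, Dct, Syt4, Sparc, Col4a1, Gpnmb, Pmel and Igf1. Igkc stood at 3664 and 10455 CPM in MHC class II low cells and at 209 and 368 CPM in members. Dct, a pigment enzyme of melanocytes, stood at 862 and 380 CPM against 80.3 and 46.3 CPM, and Pmel, a melanosome protein, at 234 and 78.6 CPM against 40.4 and 26.3 CPM. The part of plasma cells and melanoma cells in these differences was not tested. With C1q of at least 0.2% of UMIs as the gate the higher of the 2 log2 ratios was 0.26 for Igkc and 0.061 for Pmel, and with at least 20 C1q UMIs it was 0.060 for Igkc. Gpnmb, which lipid-laden macrophages and melanocytes both express, gave -2.44 and -1.87.

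Against Mrc1 high C1q cells, which hold 4 or more UMIs of the mannose receptor Mrc1, members were lower in Pf4, Mmp13, Igf1 and Spp1 among others. Among 7995 genes, 35 (0.438%) were at least 2-fold higher in members in both libraries and 67 (0.838%) lower. Without the dendritic gene bearing members the numbers were 11 of 7870 (0.14%) and 55 (0.699%). Over all members, a C1q minimum of 5 UMIs gave 114 and 126, and C1q of at least 0.2% of UMIs gave 7 and 65. The lowest included Flrt2, Gas6, Igf1, Pdpn, Pf4, Mmp13, Jag1, Atp6v0d2 and Cxcl1. Pf4, a chemokine also made by platelets, stood at 75.0 and 57.3 CPM against 567 and 350 CPM (-2.91 and -2.61), and Mmp13, a collagenase, at 64.5 and 25.3 CPM against 510 and 144 CPM (-2.98 and -2.50). Igf1, a growth factor, gave -2.76 and -3.36. Each of these directions was the same in both libraries and without the dendritic gene bearing members.

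Of the 23 measured genes of the lysosome and lipid handling list, 6 were lower in members than in Mrc1 high cells and 0 higher, with medians of -0.89 and -0.58. Spp1, the matrix protein osteopontin, stood at 337 and 167 CPM against 1230 and 436 CPM, and Gpnmb at 122 and 96.4 CPM against 564 and 263 CPM. Ctsl, a lysosomal protease, gave -2.20 and -1.65 and Trem2, a lipid receptor, -1.41 and -1.20. Of 9 MHC class II genes outside the rule H2-Ob alone was higher (2.37 and 1.29), and 0 were without the dendritic gene bearing members, with list medians of 0.75 and 0.32 over all members. Of 22 measured chemokine genes 4 were lower (Ccl6, Ccl7, Cxcl1 and Pf4) and 1, Cxcl9, was higher, with log2 ratios of 1.05 and 1.08. The interferon gamma list had medians of 0.51 and 0.49, with Cxcl9 the 1 of 24 genes that was higher, and the MHC class I list medians of 0.34 and 0.36 with 0 of 18. Complement (0 of 8), Fc receptors (0 of 6) and transcription factors (0 of 21) held no gene past the 2-fold limit in both libraries. Of all genes 0.438% were higher and 0.838% lower, so 0 does not set these lists apart.

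The 10 genes highest over Mrc1 high cells were Gpr141b, Xcr1, Dnase1l3, Itgae, Septin3, Spint2, Clic5, Clec9a, Zfp366 and Kit. Gpr141b, Itgae and Septin3 had log2 ratios under 1 in both libraries once the dendritic gene bearing members were taken out, as did Xcr1 and Clec9a, by which those members were chosen. The 10 highest were then Dnase1l3, Ly6i, Gbp2b, F830016B08Rik, Cxcl9, Adgre4, Hrh2, Tspan33, Hivep3 and Calhm6. Dnase1l3 then gave 1.60 and 1.67, Ly6i, a GPI-anchored protein of the Ly6 family, 1.79 and 1.48, and Cxcl9 1.13 and 1.17. Dnase1l3 was thus 2-fold higher over both neighbours in both libraries with or without the cells in doubt.

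Members were also set beside dendritic cells, taken as cells with at most 2 C1q UMIs, at least 1.5% of MHC class II UMIs and 2 or more UMIs of the 5 dendritic cell genes. H2-Aa stood at 10260 and 10323 CPM in members and 12016 and 13362 CPM in dendritic cells, and Ciita at 169 and 202 CPM against 258 and 319 CPM; both groups were chosen for their class II share, so the nearness of H2-Aa is set by the gates. C1qa, also set by the gates, stood at 780 and 734 CPM against 45.6 and 37.6 CPM, where T cells had 81.8 and 89.9 CPM. Apoe, a lipid carrier of macrophages, stood at 1181 and 1127 CPM against 189 and 219 CPM.

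Between the libraries, members of the library labelled Irg1-/- carried more transcripts of interferon response genes. Among 5360 genes that had 100 or more UMIs and were seen in 10% or more of either library's members, 148 (2.76%) were at least 1.5-fold higher in the library labelled Irg1-/- and 138 (2.57%) at least 1.5-fold lower, with a median log2 ratio of -0.02. Scaling by trimmed means (TMM) in place of total UMIs made this 192 higher and 106 lower, the mean of each cell's CPM 177 and 209, and thinning to 3000 UMIs 70 and 40. Without the dendritic gene bearing members 126 of 4776 (2.64%) were higher and 123 (2.58%) lower. These are counts by size between 2 pools, with no test.

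Of the 29 measured genes of the type I interferon response list, 13 were at least 1.5-fold higher in the library labelled Irg1-/- and 0 lower, 28 had a ratio above 1, and the list median was 0.58 on the log2 scale. Without the dendritic gene bearing members 13 of 29 were higher, with a median of 0.58. TMM scaling made it 20 of 29. In the 31 and 27 members with under 2 UMIs of each set of other cell types' markers, 6 genes of the list passed the minimum, of which 2 were higher, with a median of 0.28. Isg15 stood at 253 and 502 CPM in the libraries labelled Irg1+/+ and Irg1-/-, a log2 ratio of 0.99 (0.83 to 1.16), and was seen in 125 of 202 and 187 of 222 members. Ifi44, an interferon-induced cytoplasmic protein, stood at 43.9 and 98.3 CPM (1.16, 0.77 to 1.56), Irf7, the transcription factor that amplifies type I interferon, at 207 and 351 CPM (0.76, 0.58 to 0.95), and Oasl2, a relative of the RNA-sensing oligoadenylate synthetases, at 248 and 439 CPM (0.82, 0.66 to 0.99). Irf9, a subunit of the factor that drives these genes, did not differ beyond counting error, at 176 and 175 CPM (-0.01, -0.23 to 0.22).

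Of the 23 measured genes of the interferon gamma response list, 10 were higher in the library labelled Irg1-/- and 0 lower, with a median of 0.45, and 9 without the dendritic gene bearing members, with a median of 0.49. In the 31 and 27 members with few UMIs of other cell types' markers, 2 of the 4 genes past the minimum were higher and 2 were not above 0, with a median of 0.06. Socs1, the feedback inhibitor of interferon signalling, stood at 53.9 and 148 CPM (1.46, 1.12 to 1.81). Irf1, a transcription factor, stood at 493 and 875 CPM (0.83, 0.71 to 0.95), and Gbp5, a guanylate-binding protein, at 115 and 250 CPM (1.11, 0.88 to 1.36). Iigp1 and Tgtp1, interferon-induced GTPases, gave 0.87 and 1.34, though Tgtp1 has the near-identical copy Tgtp2.

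List medians were above 0 in the neighbouring C1q cells as well. The type I interferon list had a median of 0.36 in MHC class II low cells, with 5 of 28 genes higher and 0 lower, and of 0.45 in Mrc1 high cells, with 9 of 29 higher and 2 lower. The interferon gamma list had medians of 0.18 (3 of 21 higher) and 0.48 (7 of 24 higher, 1 lower). Of all genes measured, 3.22% were higher and 6.38% lower in MHC class II low cells, and 2.91% and 3.47% in Mrc1 high cells. Isg15 gave 0.79 in MHC class II low cells, 0.50 in Mrc1 high cells, 0.72 in monocytes and 0.27 in T cells. Socs1 gave 0.51, 0.84, 0.89 and 0.19 in the same order, and Gbp5 gave 0.32, 0.73, 0.74 and 0.07. Whether the ratio in members differs from that in the other cells was not tested.

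**Figure D4:**
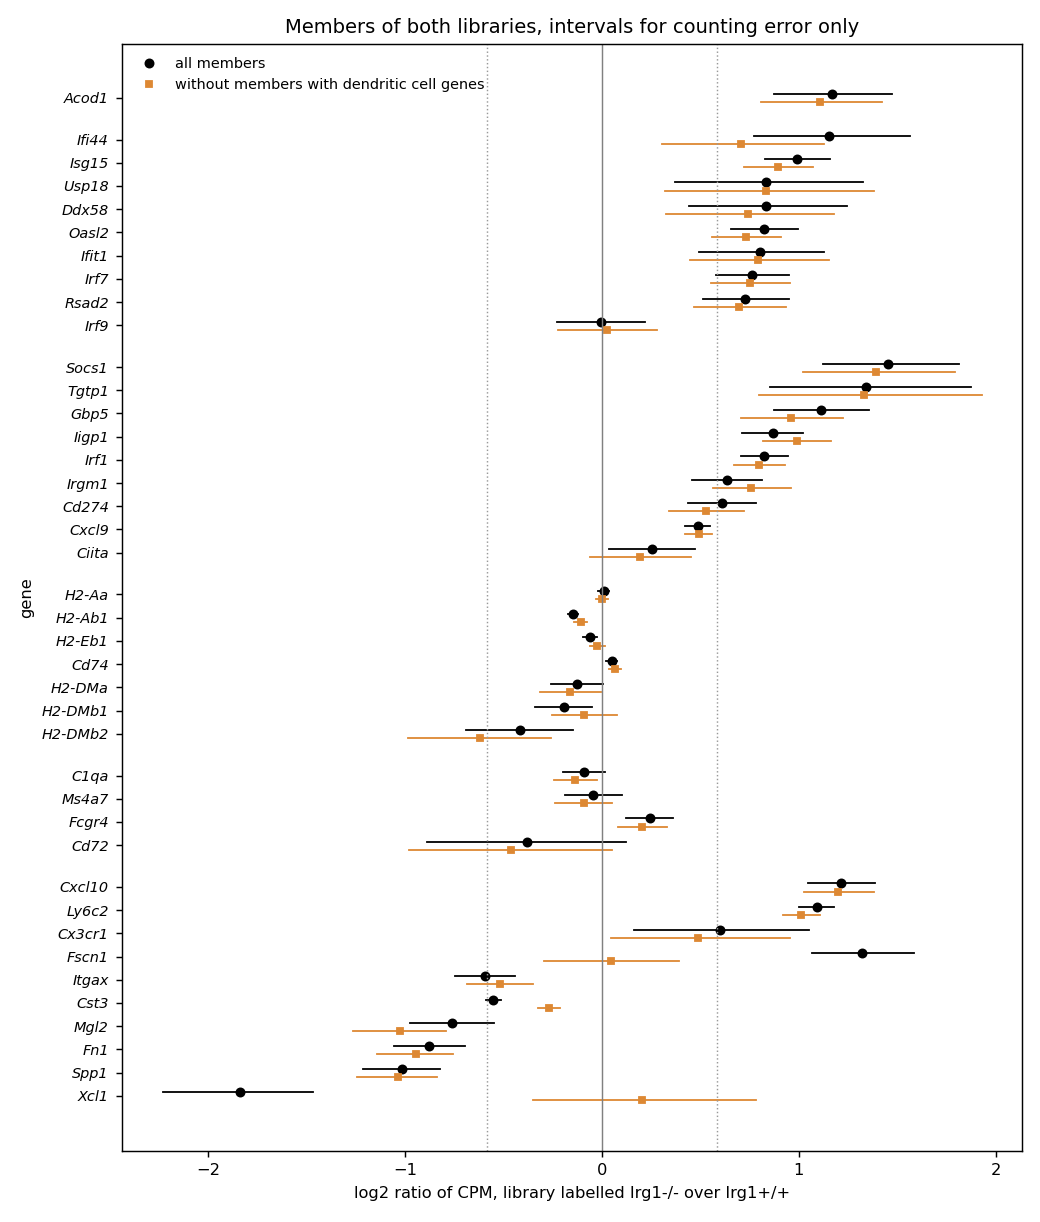
Points give the log2 ratio of CPM (library labelled Irg1-/- over library labelled Irg1+/+, horizontal axis) of each gene (vertical axis) for all members (black) and for members without dendritic cell genes (orange), with exact 95% intervals for counting error and dotted lines at 1.5-fold. Interferon genes lie mostly to the right, MHC class II genes near 0, and the orange points lie at 0.05 for Fscn1 and 0.21 for Xcl1.

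The antigen presentation genes themselves were close between the libraries. None of 11 measured MHC class II genes passed the 1.5-fold limit, and their median was -0.06. Over all genes 2.76% were higher and 2.57% lower. Without the dendritic gene bearing members 1 of 10 MHC class II genes passed the limit, H2-DMb2, at -0.62. H2-Aa stood at 10260 and 10323 CPM (0.01, -0.02 to 0.04), H2-Ab1 at 11693 and 10565 CPM (-0.15, -0.17 to -0.12) and Cd74 at 10413 and 10779 CPM (0.05, 0.02 to 0.08). The gate fixes the class II share, so this nearness is partly built in. In Mrc1 high cells, whose gate does not use the class II share, and in monocytes, where it served only to leave out dendritic cells, H2-Aa gave 0.49 and 0.45 and Ciita 1.12 and 0.62, against 0.25 (0.03 to 0.47) for Ciita in members. The MHC class I list had 0 of 18 genes past the limit and a median of 0.23, with B2m at 5937 and 7213 CPM and the peptide transporter Tap1 at 296 and 402 CPM.

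Costimulatory and checkpoint genes gave 3 of 12 higher and 0 lower. Cd40, through which T cells activate presenting cells, stood at 89.1 and 155 CPM (0.80), Cd274, which encodes PD-L1, at 249 and 380 CPM (0.61), and Lgals9, a galectin, at 192 and 292 CPM (0.60). Cd274 was under the limit, at 0.53, without the dendritic gene bearing members. Cd86 was at 328 and 283 CPM (-0.21), within the limit.

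Among 21 measured chemokines and receptors, Cxcl10 and Cx3cr1 were higher and Cxcl1 lower. Cxcl10, like Cxcl9 a ligand of CXCR3, stood at 229 and 531 CPM (1.22, 1.05 to 1.39) and was seen in 86 of 202 and 119 of 222 members. Cxcl9 was under the limit, at 1873 and 2625 CPM (0.49, 0.42 to 0.55). Cxcl1, a ligand that draws neutrophils, stood at 52.1 and 20.5 CPM (-1.34, -1.91 to -0.80). Without the dendritic gene bearing members, Cxcl10 (1.20) and Ccl8 (0.70) were higher and Cxcl1 (-1.38) and Ccl22 (-1.42) lower. Of 12 monocyte genes, Ly6c2 (1.09) and Plac8 (0.59) were higher and Fn1 (-0.88) and Vcan (-0.65) lower. Monocytes themselves, whose gate asks for Ly6c2, were 3.58% and 7.25% of kept cells. The part of Ly6c2 itself in that difference was not tested. The 6 monocyte markers summed to 3340 and 5053 CPM in members and 3017 and 5073 CPM in all other kept cells. Plac8 was under the limit, at 0.44, without the dendritic gene bearing members, and Cx3cr1 at 0.49. Ly6c2 also gave 1.18 in MHC class II low cells and 1.19 in Mrc1 high cells. Outside the C1q cells it was also seen more often in the library labelled Irg1-/-. After thinning, the shares in the libraries labelled Irg1+/+ and Irg1-/- were 63.0% and 88.3% of T cells. They were 59.2% and 78.8% of dendritic cells, against 69.0% and 89.1% of members. Whether Ly6c2 differs more in members than in these other cells was not tested.

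Of 22 lysosome and lipid handling genes, Spp1 stood at 337 and 167 CPM (-1.02) and the tetraspanin Cd9 at 192 and 124 CPM (-0.64), both lower. Cst3, a protease inhibitor abundant in type 1 dendritic cells, was within the limit at -0.55, and at -0.27 without the dendritic gene bearing members. The alternative activation list had Retnla (0.85), a gene of the rule, higher and Mgl2 (-0.76) lower. Retnla had 99 UMIs without the dendritic gene bearing members, under the minimum of 100. In complement, C4b (0.60), which has a close copy, was higher and the integrin Itgax (-0.60) lower among 11, and Itgax was under the limit, at -0.52, without those members. Among cytokines and enzymes Acod1 was the 1 gene of 11 past the limit, with Il1b at 1885 and 2091 CPM (0.15) and Tnf at 313 and 282 CPM (-0.15). Nos2, the inducible nitric oxide synthase, passed it as well, at 0.62, without the dendritic gene bearing members. Timd4 was the 1 of 10 dead cell uptake genes past the limit. Outside the members too it was seen more often in the library labelled Irg1-/-. The shares were 1.92% and 14.1% of Mrc1 high cells, 3.45% and 9.59% of MHC class II low cells, and 8.55% and 28.4% of dendritic cells. In T cells they were 1.23% and 3.69%.

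The lists for Fc receptors (6 genes), macrophage identity (9), NF-kB feedback (10), immediate early and heat shock genes (14), glycolysis and hypoxia (20), the Ms4a family (7) and transcription factors (18) held 0 genes past the 1.5-fold limit in either direction, with medians between -0.06 and 0.20. Over all genes 2.76% were higher and 2.57% lower, so 0 in lists this short does not set them apart. Without the dendritic gene bearing members Ms4a4b (-0.59) was lower and Batf3 (0.77) higher. Fcgr4 stood at 562 and 665 CPM (0.24, 0.12 to 0.36), Ms4a7 at 428 and 415 CPM (-0.04, -0.19 to 0.10) and Cd72 at 41.0 and 31.5 CPM (-0.38, -0.89 to 0.13).

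The largest ratios included those of scarce transcripts and of transcripts held by few cells. The 10 highest in the library labelled Irg1-/- were Tpm3-rs7, Igha, Ear2, Timd4, Gm4951, Socs1, Ddx60, Tgtp1, F830016B08Rik and Fscn1. Tpm3-rs7, a tropomyosin-related sequence that shares reads with its parent gene, had 20 and 270 UMIs (3.43), and gave 3.36 in T cells and 4.15 in Mrc1 high cells. Igha, the heavy chain of immunoglobulin A, had 35 and 219 UMIs (2.33), and Ear2, an eosinophil-type ribonuclease, 17 UMIs in 12 cells and 85 UMIs in 28 cells (1.99), and without the dendritic gene bearing members it gave 1.97 from 92 UMIs, under the minimum. For Fscn1, an actin bundler of mature dendritic cells, 5 cells held 60.9% of its 504 UMIs in the library labelled Irg1-/-, and the log2 ratio went from 1.32 to 0.05 without the dendritic gene bearing members.

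The 10 lowest were Xcl1, Itgae, Gcsh, Cd8b1, Ctla4, Ifng, Plet1, Mmp13, Cxcl1 and Egr3. Xcl1, the ligand of Xcr1 made by NK and CD8+ T cells, had 231 and 79 UMIs (-1.84), 181 of the former in 1 cell, and 0.21 without the dendritic gene bearing members. Ctla4, a T cell checkpoint receptor, gave -1.45, Cd8b1, a chain of CD8, -1.59 and Ifng -1.36, the last with 53 of its 101 UMIs in the library labelled Irg1+/+ in 1 cell and -0.35 without the dendritic gene bearing members. Itgae (-1.63) and Plet1 (-1.36) gave -0.64 and -0.64 without the dendritic gene bearing members, and Cd8b1 -1.22. Itgae, Plet1, Cd8b1 and Ifng were then under the minimum of 100 UMIs.

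Transcripts of other cell types moved with the library. All 7 T cell markers were found in members, summing to 800 CPM in the library labelled Irg1+/+ (highest gene Trac) and 484 CPM in the library labelled Irg1-/- (highest Trbc2), with 2 or more UMIs in 152 and 153 cells. T cells themselves were 9.04% and 4.68% of kept cells. Monocytes, whose gate asks for Ly6c2, were 3.58% and 7.25%. The 5 NK cell markers summed to 308 and 437 CPM (highest Nkg7, then Gzma), the 5 neutrophil markers to 73.8 and 153 CPM (Csf3r), the 5 melanoma markers to 186 and 114 CPM (Dct) and the 5 B cell markers to 92.6 and 98.3 CPM (Ighm). In all other kept cells these sums were 1859 and 1444 CPM for T cells and 826 and 171 CPM for melanoma. They were 946 and 1580 CPM for NK cells, 115 and 323 CPM for neutrophils and 128 and 148 CPM for B cells. The part of these transcripts in Ctla4, Cd8b1, Ifng, Igha and the other named genes was not tested. Of the 4 hemoglobin genes, 3 were at 0 in the library labelled Irg1+/+ and 4 in the library labelled Irg1-/-, and the mast cell gene Cpa3 was at 0 in the former.

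Over all members, genes were ranked by the smaller of the 2 libraries' variance over the mean. By that ranking cells varied most in Cst3, Cxcl9, Lyz2, Hspa1b, Hspa1a, Rsad2, Cxcl2, Mmp12, Fth1 and Ccl8. The variance over the mean of UMIs, in cells thinned to 3000 UMIs, was 41.7 and 18.3 for Cst3, 16.6 and 14.9 for Cxcl9, 13.8 and 12.7 for Lyz2 (lysozyme) and 10.0 and 10.0 for Rsad2, an antiviral enzyme induced by interferon. The median over 4260 genes was 1.13 in each library. The heat shock genes Hspa1a and Hspa1b are near-identical copies, and gave 14.8 and 11.6 and 22.9 and 12.3. For Cst3, 10 cells held 43.8% and 37.6% of its UMIs. Without the dendritic gene bearing members Cst3 gave 7.95 and 3.87 and was 47th. By the same ranking the first 10 genes were then Cxcl9, Mmp12, Hspa1b, Lyz2, Rsad2, Cxcl2, Spp1, Ctsb, Hspa1a and Fth1, with 16.0 and 15.2 for Cxcl9.

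Members were split by their Cxcl9 and Cxcl10 UMIs, as a description. At least 3 UMIs of the pair were held by 124 members (61.4%, 54.3 to 68.1) in the library labelled Irg1+/+ and 173 (77.9%, 71.9 to 83.2) in the library labelled Irg1-/-. Those cells were deeper, with medians of 9011 and 10187 UMIs against 6107.5 and 5697 in the rest. The part of depth in the division was not tested. Dendritic gene bearing members were 16 and 22 of the cells with the chemokines and 7 and 1 of those without. Gbp2, a guanylate-binding protein, stood at 1472 and 1760 CPM in the cells with the chemokines and at 579 and 575 CPM in those without. Cd274 stood at 276 and 417 CPM against 185 and 176 CPM. H2-Aa did not follow, at 10247 and 10183 CPM against 10289 and 11092 CPM, and Isg15 stood at 270 and 510 CPM against 212 and 461 CPM.

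Members were also split by the share that chose them, as a description. Ciita stood at 103 and 166 CPM in members with 1.5 to 2% of MHC class II UMIs (46 and 48 cells), 151 and 171 CPM at 2 to 3% (73 and 98 cells) and 222 and 277 CPM above 3% (83 and 76 cells). Xcr1 stood at 28.6 and 23.7, 115 and 52.8, and 319 and 206 CPM over the same steps, and 16 and 12 of the cells above 3% carried dendritic cell genes. Adgre1 stood at 320 and 345 CPM in the lowest step and 213 and 279 CPM in the highest. Cxcl9 stood at 1921 and 2335 CPM in the lowest step and 1940 and 3099 CPM in the highest, with no common order of steps in the 2 libraries.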

How the data were processed

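The authors sequenced CD45+ cells on BD Rhapsody, identified barcodes with UMI-tools, aligned to the mouse genome (Ensembl 100) with STAR and deposited raw UMI counts per gene and cell; CASAVA 1.8, Seurat and GRCm38 stand in the submitters' processing notes. The deposited counts cover 31253 genes, mitochondrial ones included, and entries sharing a symbol were summed. Cells with 10% or more mitochondrial UMIs were dropped, as in the authors' stated filter, whose minimum of genes was met by every barcode. Doublets were not called and were kept. Counts were summed over the cells of a group and expressed as CPM. Log2 ratios used 0.5 UMIs added to each sum and exact conditional binomial intervals. Shares used Clopper-Pearson intervals and levels exact Poisson intervals. Differences between shares used Newcombe intervals from Wilson limits, which are approximate. All of these cover counting error only. Each genotype was 1 library, so no p-value was computed. Named genes were the 10 highest and 10 lowest log2 ratios of each comparison, the genes of the rule, the given markers, members of 19 fixed lists and the 10 most variable genes. Ly6i, Gbp2b and other genes named without the dendritic gene bearing members follow the same rule on the members left. Members and lists were chosen with earlier results of these data known, so no pattern here is independent support. Alternatives moved the gates, left out cells, thinned cells to 3000 UMIs, averaged cells, used TMM factors (edgeR 4.0.16, R 4.3.3) or changed the minimum and the pseudocount. Sums and intervals were computed in Python 3.11.15 with scipy 1.17.1 and pandas 2.3.3. The log2 ratios and the counts past the fold were tested on simulated counts that held counting error only. The intervals were not tested. Gene positions are from GENCODE mouse release 21, and 4 list genes were not used here. Some genes that these rules would name are not reported here.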

Additional observations from a re-analysis of the deposited data

Results flagged for a closer look

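For 3 genes named here the ratio between the libraries was past 1.5-fold in opposite directions in members and in a neighbouring group of C1q cells. Ifit1 gave a log2 ratio (library labelled Irg1-/- over library labelled Irg1+/+) of 0.80 in members and -0.89 in Mrc1 high C1q cells. Rsad2 gave 0.73 and -0.71 in the same groups, and both are antiviral genes of the type I interferon list. Fscn1 gave 1.32 in members and -1.26 in MHC class II low C1q cells, and 0.05 in members without dendritic cell genes. With 1 library per genotype the difference was not tested for any of them.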

How the results depend on the processing

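No paired analysis was possible because each genotype was 1 library, and for the same reason no replicate could be left out. With members holding 2 or more UMIs of T cell, NK cell, B cell, neutrophil or melanoma markers removed (31 and 27 left), the Acod1 log2 ratio was -1.49 from 30 and 9 UMIs, the difference in the share of C1q cells 0.228 points and that of kept cells -0.027, 20 genes were higher and 27 lower in the library labelled Irg1-/-, 18 higher and 113 lower than in MHC class II low cells, 63 and 163 against Mrc1 high cells, and 2 of 6 type I and 2 of 4 interferon gamma genes were higher. Thinned to 3000 UMIs, the same counts were 70 and 40, 10 and 10, 10 and 36, and 8 of 20 type I genes. A C1q minimum of 5 UMIs gave 71 and 143 against MHC class II low cells and 114 and 126 against Mrc1 high cells, and one of 20 UMIs 12 and 18, and 8 higher. Minimums of 20 UMIs and of 1 UMI both gave 326 higher and 361 lower between libraries and 46 lower than MHC class II low cells. Averaging the CPM of single cells gave 209 lower genes and 0.837 for Acod1, and TMM scaling 20 of 29 type I genes; TMM moved log2 ratios against MHC class II low cells in the library labelled Irg1+/+ by 0.12. Of the alternatives chosen after seeing the data, removal of members with 5 or more dendritic gene UMIs gave 15 and 46 against MHC class II low cells and 11 higher than Mrc1 high cells, removal from 2 UMIs 11 and 55, and 9, and C1q of at least 0.2% of UMIs 11 and 12, and 7. Named genes past their fold limit that still passed the minimum changed sign as follows; Gpr141b and Itgae, without the dendritic gene bearing members, no longer passed it. Between libraries, Fscn1 gave -0.38 (C1q of 5 UMIs) and -0.074 (C1q of 0.2%), and Xcl1 0.55 (C1q of 20 UMIs) and 0.21 (5 dendritic gene UMIs). Against MHC class II low cells, taking the lower of the 2 ratios for genes higher in members and the higher for the others, Xcr1 gave -0.79 (5 dendritic gene UMIs), Igkc 0.060 (C1q of 20 UMIs) and 0.26 (C1q of 0.2%), and Pmel 0.061 (C1q of 0.2%). Against Mrc1 high cells, C1q of 20 UMIs, the removal of members with other markers, and of those with 5 or 2 dendritic gene UMIs gave -0.38, -0.64, -0.52 and -1.53 for Xcr1 and -0.48, -2.64, -0.80 and -0.69 for Septin3, which gave -0.52 at C1q of 0.2%, and the last 3 gave -0.18, -0.086 and -1.70 for Clec9a. Of 469 values of named genes between libraries under the alternatives 458 kept their direction, genes under the limit included, and of 614 between cell groups 598 did. The cause of these changes was not tested. What depth does to genes with under 100 UMIs over the members was not tested.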
